A study of Mus musculus with 18 samples.

Results

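The 9 genes described here are transcripts by which mouse B cell subsets are told apart: *Fcer2a* for follicular B cells, *Cd1d1*, *Cd9*, *Dtx1*, *Notch2* and *Hes1* for marginal zone B cells and their Notch signal, *Cd93* and *Cd24a* for immature and transitional B cells, and *Cd55*, which is carried by most mature B cells. They were taken by gene name from a table of 16545 genes, and all 9 were found in it. Total splenic B cells were compared between control mice and B-CKO mice, in which *Zbtb24* is removed from B cells, before and after culture with LPS, the endotoxin of Gram-negative bacteria, to which B cells respond through the receptor TLR4. The labels give 6 groups of 3 libraries, control and B-CKO at 0 h, 24 h and 48 h (given there as D0, D1 and D2). By the study's methods, B-CKO mice carry a Cre that is active in B cells together with Zbtb24 loxp/loxp, with loxp sites around *Zbtb24* exon 2, and controls are Zbtb24 +/+ littermates with the same Cre unless stated otherwise, all on a C57BL/6 background. The labels do not give the Cre genotype of the control libraries. Were these controls without the Cre, effects of the Cre allele and of the removal of *Zbtb24* could not be told apart. Age, sex and LPS dose of these libraries are not given in the sources used here. B cells were enriched with magnetic beads and then sorted before culture, and follicular, marginal zone and transitional cells were not separated. By the methods each replicate of splenic B cells came from its own mouse, and the labels do not say whether libraries of the same number at different times came from the same mouse.

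Follicular B cells recirculate through lymphoid follicles, whereas marginal zone B cells sit at the edge of the splenic follicle and answer blood-borne antigens. A transitional B cell becomes a marginal zone B cell when NOTCH2 on its surface is engaged by Delta-like 1 on stromal cells: the receptor is cut, its intracellular part joins the DNA-binding factor RBPJ, and target genes such as *Hes1* and *Dtx1* are transcribed. CD23, CD1d, CD9, CD93 and CD24 are among the surface proteins by which flow cytometry separates these subsets, and LPS-activated B cells lose or gain several of them.

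Promoters are shown for 4 of the genes, since the results turn on *Fcer2a*, *Cd55* and *Dtx1*, and since *Cd9* carries the motif bound by RBPJ. Each is the stretch of 250 bases before a RefSeq start site (GRCm38.p6), written 5′ to 3′ in the direction of the gene. Capitals mark TGGGAA, the core of the RBPJ motif, or TTCCCA, the same core on the opposite strand. *Dtx1*, on the minus strand at chr5:120711670-120711919, had no copy of the core, nor had *Cd55*, on the minus strand at chr1:130462745-130462994. *Cd9*, on the minus strand at chr6:125494761-125495010, had 1 copy, which starts 211 bases before the start site and lies within the longer form GTGGGAA. *Fcer2a* has 3 RefSeq start sites, and the window of the one shown, on the minus strand at chr8:3690862-3691111, had 2 copies, both on the opposite strand.
Dtx1: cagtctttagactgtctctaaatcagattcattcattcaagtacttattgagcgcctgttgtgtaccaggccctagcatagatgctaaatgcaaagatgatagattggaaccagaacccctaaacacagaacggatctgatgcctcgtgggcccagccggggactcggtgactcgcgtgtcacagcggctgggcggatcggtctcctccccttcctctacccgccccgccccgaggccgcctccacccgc
Cd55: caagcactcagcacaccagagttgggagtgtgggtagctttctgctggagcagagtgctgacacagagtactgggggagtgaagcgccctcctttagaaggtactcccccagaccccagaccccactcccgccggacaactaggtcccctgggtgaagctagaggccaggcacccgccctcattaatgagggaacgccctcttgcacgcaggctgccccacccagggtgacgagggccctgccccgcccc
Cd9: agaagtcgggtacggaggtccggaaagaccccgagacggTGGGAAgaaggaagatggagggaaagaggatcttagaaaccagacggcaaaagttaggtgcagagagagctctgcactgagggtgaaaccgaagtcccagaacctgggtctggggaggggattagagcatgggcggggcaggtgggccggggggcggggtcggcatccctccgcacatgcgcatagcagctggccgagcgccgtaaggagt
Fcer2a: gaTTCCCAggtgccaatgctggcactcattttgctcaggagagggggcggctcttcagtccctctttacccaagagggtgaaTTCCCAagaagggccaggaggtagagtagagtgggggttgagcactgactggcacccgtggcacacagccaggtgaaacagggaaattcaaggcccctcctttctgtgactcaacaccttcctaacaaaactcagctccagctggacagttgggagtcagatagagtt
Among 32851 RefSeq promoter windows of this length, 21.6% held TGGGAA on either strand and 5.42% held GTGGGAA, which contains the core. Of the other *Fcer2a* start sites, the one farthest upstream (chr8:3694175-3694424) held no copy and the one farthest downstream (chr8:3690391-3690640) held 1, and the *Notch2* window (plus strand, chr3:98013288-98013537) held none. The *Dtx1* window was 56.4% G and C with 15 CpG sites, the *Cd55* window 64% with 8, the *Cd9* window 61.6% with 16, and the *Fcer2a* window shown 54.4% with 2. These matches describe letters only.

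Expression was read as FPKM, a level scaled to transcript length and library size, so that genes can be compared with each other. The fragments behind each value are not given, and the steps between low values were whole multiples for only 51.1% of the 45 genes that could be used (tolerance 0.1), so that depth is unknown. *Zbtb24*, the targeted gene, was lower in every B-CKO library than in any control library at each time. Its level was 49.56, 49.62 and 37.05 FPKM in control and 14.33, 10.53 and 12.57 FPKM in B-CKO libraries at 0 h. It was between 15.68 and 18.77 FPKM against 10.39 to 11.66 FPKM at 24 h, and between 13.42 and 17.11 FPKM against 9.23 to 11.34 FPKM at 48 h. *Zbtb24* had a log2 fold change (B-CKO over control) of -1.78 before LPS, -0.64 after 24 h and -0.50 after 48 h, with limma adjusted p of 0.12, 0.0586 and 0.267.

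**Figure D1:**
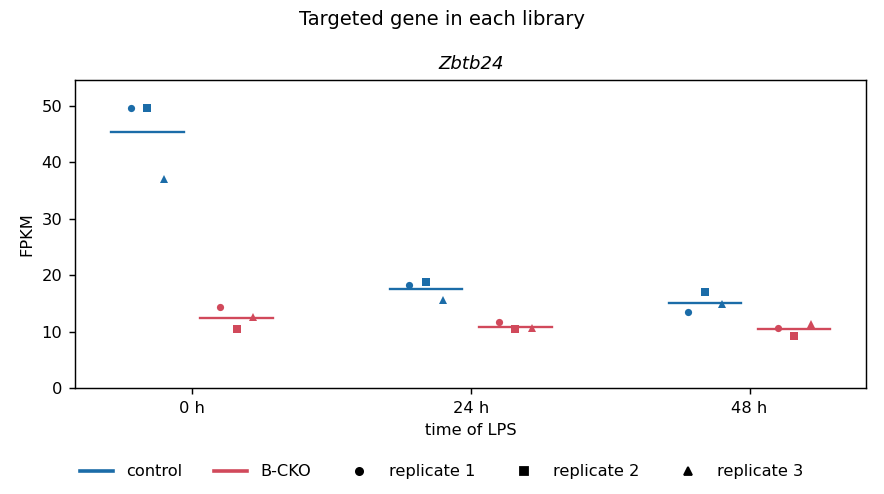
FPKM of *Zbtb24* (y axis, from 0) in each of the 18 libraries by time of LPS (x axis), with control in blue, B-CKO in red, a symbol for each replicate number and a line at the group mean. Every B-CKO library lies below every control library at each time, with the lowest control library at 0 h at 37.05 and the highest B-CKO library at 14.33 FPKM.

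The libraries held a B cell signal with little of other lineages. The 5 B cell genes *Cd79a*, *Cd79b*, *Ms4a1*, *Cd22* and *Pax5* summed to between 3386 and 4614 FPKM at 0 h, while 8 T cell genes summed to between 23.4 and 33.2 FPKM, 8 myeloid genes to between 9.1 and 14.97 FPKM, 4 NK cell genes to between 2.78 and 4.22 FPKM and 5 platelet genes to at most 0.8 FPKM. Erythroid genes summed to between 11.9 and 71.3 FPKM at 0 h, and 4 endothelial genes, of which *Pecam1* is also a B cell transcript, to between 70.3 and 83.5 FPKM. At 24 h the T cell sum was between 10.2 and 15.3 FPKM and the B cell sum between 1883 and 2174 FPKM. The 4 plasma cell genes summed to between 122.95 and 158 FPKM at 0 h, 71.9 and 90.6 FPKM at 24 h, and 140 and 250 FPKM at 48 h, and the 5 B1 cell genes to between 31.7 and 46.9, 112 and 129, and 191 and 219 FPKM at these times. Most of the B1 cell sum at 24 h and 48 h was *Zbtb32*. By 24 h 4 of the 5 B1 cell genes passed limma's test in each genotype, 1 higher and 3 lower, beside 57.4% and 59.8% of all genes. The 4 dendritic cell genes, most of whose sum at 48 h was *Flt3*, lay between 2.01 and 3.96 FPKM at 0 h and between 23.5 and 32.4 FPKM at 48 h. At 0 h the libraries numbered 1 and 3 had the lowest correlation within their group, 0.986 in control and 0.990 in B-CKO cells. Number 1 stood apart in both genotypes, for example, in *Ccr7* at 209.1 and 252.11 FPKM against 598.46 to 669.07 FPKM in the other 4. Number 3 did so in *Vpreb3*, at 52.53 and 62.15 FPKM against 80.94 to 106.55 FPKM. The median SD between replicates was 0.169 and 0.158 log2 units at 0 h in control and B-CKO, against 0.0545 to 0.0852 later.

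Before LPS, the 9 genes spanned a wide range of levels. In control cells the mean was highest for *Fcer2a* (431 FPKM) and *Cd24a* (425 FPKM), whose libraries overlapped, then *Cd55* (222 FPKM), *Dtx1* (124 FPKM), *Notch2* (62.6 FPKM) and *Hes1* (53.9 FPKM), the last pair again overlapping. *Cd1d1* (25.2 FPKM), *Cd9* (14.7 FPKM) and *Cd93* (5.29 FPKM) followed, each apart from the next in all libraries. The order was the same in B-CKO cells, with means between 409 FPKM for *Fcer2a* and 4.84 FPKM for *Cd93*. At 24 h *Cd24a* stood alone at the top in both genotypes, and *Hes1* was lowest, overlapping with *Cd1d1*. Total splenic B cells hold all subsets at once, so fewer cells of a subset and less RNA per cell cannot be told apart in any of these levels. For naive mice, the paper reports that lack of *Zbtb24* left the numbers of splenic follicular and marginal zone B cells unaffected. The subset make-up of these libraries was not measured here.

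**Figure D2:**
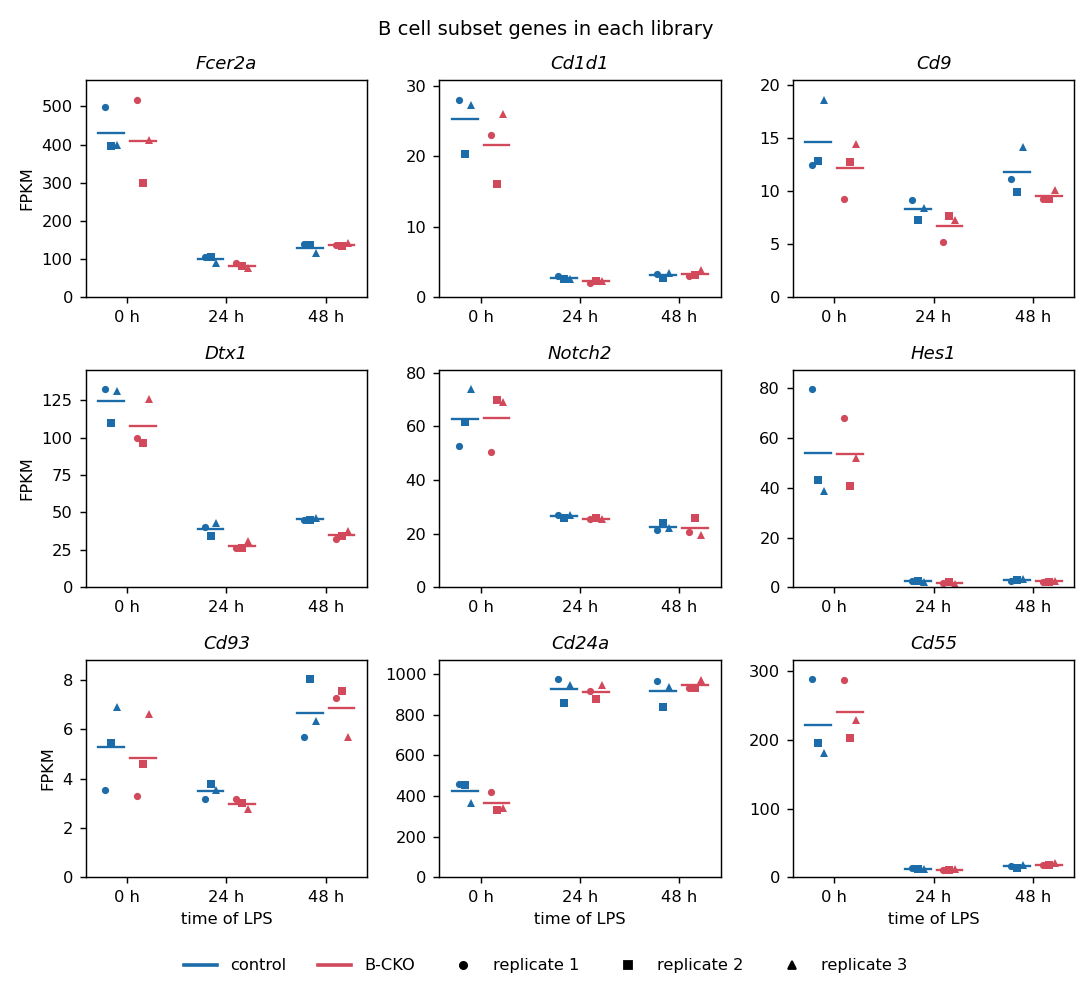
FPKM of each of the 9 genes (y axes, from 0, a separate scale for each gene) in every library by time of LPS (x axes), with control in blue, B-CKO in red, a symbol for each replicate number and a line at the group mean. *Fcer2a*, *Cd1d1*, *Dtx1*, *Notch2*, *Hes1* and *Cd55* are lower in every library at 24 h than in any at 0 h, and *Cd24a* is higher.

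The first question was how these genes changed as resting cells became LPS blasts. From 0 h to 24 h, 8 of the 9 genes passed limma's test in control cells, 7 lower and 1 higher, where 57.4% of 15531 genes passed (30.7% lower and 26.7% higher). The same 8 genes passed in B-CKO cells, where 59.8% of 15551 genes did (32.3% lower and 27.5% higher). The median log2 fold change of the 9 genes was -1.64 in control and -1.90 in B-CKO cells, beside -0.02 over all genes in each. The gene that rose was *Cd24a*, and *Cd93* did not pass in either genotype in this fit.

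*Fcer2a* (gene ID 14128, chr8:3680280-3694174, minus strand, GRCm38.p6, as for the genes below) encodes CD23, the low-affinity IgE receptor that marks follicular B cells. *Fcer2a* was at 496.93, 397.06 and 397.66 FPKM in control and 517.76, 298.39 and 410.8 FPKM in B-CKO libraries at 0 h. At 24 h it was at 105.23, 104.84 and 89.71 FPKM in control and 89.81, 83.3 and 77.11 FPKM in B-CKO libraries, all of them below every library at 0 h. The log2 fold change was -2.09 (95% interval -2.37 to -1.82) in control and -2.25 (-2.72 to -1.78) in B-CKO cells, with limma adjusted p of 2.32e-05 and 0.00011. At 48 h *Fcer2a* was at 138.52, 136.05 and 115.78 FPKM in control and 137.35, 134.07 and 142.27 FPKM in B-CKO libraries, above every library of the same genotype at 24 h. This rise of 0.38 in control and 0.72 in B-CKO cells passed (limma adjusted p = 0.0127 and 0.000105), and left the mean at 30.2% and 33.7% of its level at 0 h. The control call was lost in a single fit of all 18 libraries (0.0765).

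Among the marginal zone genes, *Cd1d1* (12479, chr3:86995834-87012358, minus strand) encodes the CD1d molecule that presents lipids to NKT cells. *Cd1d1* was at 28.02, 20.37 and 27.3 FPKM in control and 22.94, 16.02 and 25.98 FPKM in B-CKO libraries at 0 h. It was at 2.99, 2.64 and 2.67 FPKM and at 2.08, 2.39 and 2.33 FPKM at 24 h, and at 3.34, 2.78 and 3.41 FPKM and 2.99, 3.18 and 3.92 FPKM at 48 h. The mean at 24 h was 11% of that at 0 h in control and 10.5% in B-CKO cells, a log2 fold change of -2.79 and -2.77 (limma adjusted p = 1.67e-05 and 2.94e-05). Of 75-base windows of its longest coding transcript, 19.4% occur also in *Cd1d2*, which was at 0.82 FPKM or lower in every library, and how the authors' counting split such reads is uncertain.

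*Cd9* (12527, chr6:125460266-125494760, minus strand) encodes a tetraspanin found on marginal zone and B1 cells, and changed least among the marginal zone genes from 0 h to 24 h. *Cd9* was at 12.47, 12.9 and 18.67 FPKM in control and 9.3, 12.75 and 14.46 FPKM in B-CKO libraries at 0 h. At 24 h it was at 9.17, 7.34 and 8.39 FPKM and at 5.26, 7.64 and 7.3 FPKM, and at 48 h at 11.21, 9.99 and 14.23 FPKM and 9.3, 9.31 and 10.1 FPKM. The log2 fold change was -0.74 and -0.76 by 24 h (limma adjusted p = 0.00989 and 0.0137), and 0.45 and 0.46 from 24 h to 48 h (0.0286 and 0.0209). The second call was lost in the single fit of all 18 libraries (0.0702 in control and 0.0578 in B-CKO cells), and without control replicate 2 or 3 at 24 h or 1 or 3 at 48 h, or B-CKO replicate 1 or 3 at 48 h. At 48 h its libraries overlapped with those at 0 h in both genotypes, and the change from 0 h to 48 h was -0.28 (-0.74 to 0.17) in control and -0.30 (-0.67 to 0.08) in B-CKO cells. Leaving out 1 library moved it to between -0.41 and -0.11 in control and between -0.46 and -0.17 in B-CKO cells.

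The receptor *Notch2* (18129, chr3:98013538-98150367, plus strand) and its targets did not move to the same extent. *Notch2* was at 52.53, 61.63 and 73.76 FPKM in control and 50.29, 69.77 and 68.92 FPKM in B-CKO libraries at 0 h. It was between 25.36 and 27.1 FPKM in all 6 libraries at 24 h and between 19.44 and 25.9 FPKM at 48 h. The log2 fold change by 24 h was -1.19 (-1.49 to -0.89) in control and -1.25 (-1.56 to -0.94) in B-CKO cells, and *Notch2* fell further from 24 h to 48 h in control cells, with a change of -0.23 (limma adjusted p = 0.00767, and 0.214 in a single fit of all libraries). In B-CKO cells that second change was -0.22 (-0.46 to 0.01) and did not pass (limma adjusted p = 0.112), but it passed among genes whose mean reached 1 FPKM (0.0422) and, at -0.34, without B-CKO replicate 2 at 48 h (0.00142). Leaving out 1 library moved this change to between -0.34 and -0.14. *Notch2* shares 3.15% of its windows with the transcript Gm42820.

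*Dtx1* (14357, chr5:120680203-120711867, minus strand) encodes Deltex1, a ubiquitin ligase induced by Notch, and *Hes1* (15205, chr16:30065357-30067796, plus strand) encodes a repressor that is a direct Notch target in many tissues. *Dtx1* was at 132.13, 109.6 and 131.3 FPKM in control and 99.88, 96.53 and 125.77 FPKM in B-CKO libraries at 0 h. Its log2 fold change by 24 h was -1.64 (-1.91 to -1.38) in control and -1.90 (-2.19 to -1.61) in B-CKO cells (limma adjusted p = 4.92e-05 and 2.91e-05). *Hes1* was at 79.62, 43.22 and 38.87 FPKM in control and 68.01, 40.78 and 52.05 FPKM in B-CKO libraries at 0 h, highest in the library numbered 1 of each genotype. At 24 h *Hes1* was at 2.44, 2.73 and 2.18 FPKM and at 1.94, 2.08 and 1.23 FPKM, so that its mean was 22.0-fold lower than at 0 h in control and 30.6-fold lower in B-CKO cells. The log2 fold change was -3.92 and -4.30, on a scale of FPKM + 1 that compresses low values (limma adjusted p = 5.46e-05 and 1.1e-05). With the library numbered 1 at 0 h left out, the log2 fold change of *Hes1* was -3.61 in control and -4.11 in B-CKO cells.

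The immature and transitional markers went separate ways. *Cd24a* (12484, chr10:43579169-43584265, plus strand) encodes the heat stable antigen CD24. It was at 458.88, 452.67 and 364.39 FPKM in control and 419.85, 329.01 and 341.64 FPKM in B-CKO libraries at 0 h. It was between 859.55 and 973.78 FPKM at 24 h and between 839.65 and 968.81 FPKM at 48 h, above every library at 0 h. It rose by 1.13 (0.86 to 1.39) in control and 1.33 (1.08 to 1.58) in B-CKO cells by 24 h, with limma adjusted p of 0.000222 and 6.67e-05. From 24 h to 48 h the change was -0.02 and 0.05 and did not pass. Of its windows, 1.55% occur in the transcript Gm6212.

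*Cd93* (17064, chr2:148436651-148443535, minus strand), a surface glycoprotein known as AA4 on early B cells, was low throughout. *Cd93* was at 3.52, 5.43 and 6.91 FPKM in control and 3.3, 4.59 and 6.62 FPKM in B-CKO libraries at 0 h, and lowest in the library numbered 1 of each. At 24 h it was at 3.16, 3.77 and 3.53 FPKM and at 3.17, 3.0 and 2.78 FPKM, which overlapped with 0 h in control but not in B-CKO cells. The change was -0.45 (-0.97 to 0.06) in control and -0.51 (-1.02 to -0.01) in B-CKO cells, with limma adjusted p of 0.116 and 0.0757. Without the library numbered 1 at 0 h it was -0.67 in control and -0.71 in B-CKO cells and passed in both (0.00715 and 0.0105). With other single libraries left out it came as near to 0 as -0.27 in control and -0.30 in B-CKO cells. In B-CKO cells it also passed with the minimum mean of 1 FPKM (0.0407), alone or with the block (0.0371), with TPM (0.0319) and in the single fit (0.0429), and in control cells with the block and that minimum (0.0364). From 24 h to 48 h it rose by 0.76 (0.48 to 1.05) and 0.97 (0.71 to 1.23) to between 5.68 and 8.02 FPKM in control and 5.68 and 7.56 FPKM in B-CKO libraries. This was the largest rise in log2 fold change among the 9 genes over that interval in both genotypes, with limma adjusted p of 0.00231 and 0.000441.

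*Cd55* (13136, chr1:130429798-130465009, minus strand) encodes decay-accelerating factor, which protects cells from their own complement. *Cd55* was at 288.53, 195.36 and 180.9 FPKM in control and 288.2, 203.45 and 229.83 FPKM in B-CKO libraries at 0 h. It was at 13.9, 12.38 and 11.81 FPKM and at 11.19, 10.82 and 11.76 FPKM at 24 h, and at 16.59, 13.95 and 18.32 FPKM and 17.22, 17.91 and 20.37 FPKM at 48 h. The log2 fold change by 24 h was -3.99 (-4.43 to -3.56) in control and -4.29 (-4.59 to -3.98) in B-CKO cells, with limma adjusted p of 1.27e-05 and 2.97e-06. It then rose by 0.33 in control and 0.67 in B-CKO cells (limma adjusted p = 0.0374 and 0.000315). The control call of *Cd55* was lost with the replicate block (0.0555), in the single fit (0.133) and without replicate 2 or 3 at 24 h or 1 or 3 at 48 h (0.103 to 0.123). *Cd55b*, a near copy with 9.39% of the *Cd55* windows, was between 1.29 and 4.96 FPKM at 0 h and at most 0.69 FPKM later, and the promoter windows of this pair were identical at 63.7% of 281 aligned positions.

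**Figure D3:**
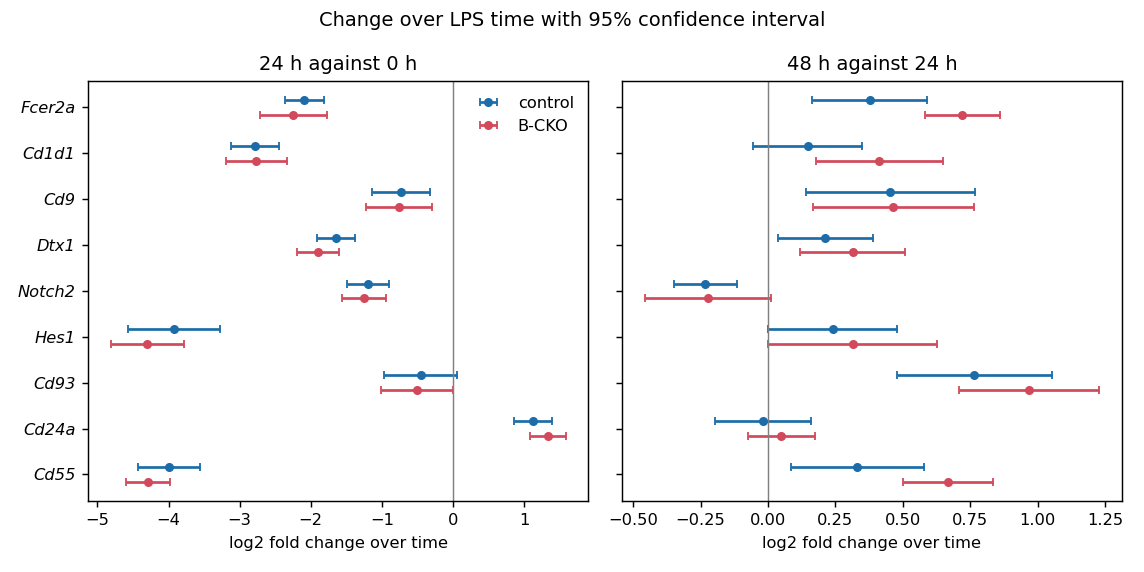
Log2 fold change of FPKM + 1 (x axes) of the 9 genes (rows) from 0 h to 24 h and from 24 h to 48 h, in control (blue) and B-CKO cells (red), with points for the limma estimate and bars for its 95% confidence interval over 3 libraries a group. By 24 h the estimates lie between -3.99 for *Cd55* and 1.13 for *Cd24a* in control cells; from 24 h to 48 h they are within 1 log2 unit, with *Cd93* the highest in both genotypes.

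From 24 h to 48 h, 5 of the 9 genes passed in control cells, 4 higher (*Fcer2a*, *Cd9*, *Cd93*, *Cd55*) and *Notch2* lower, where 44.9% of 15178 genes passed (20.1% higher and 24.8% lower). In B-CKO cells 6 passed, all higher, with *Cd1d1* (0.41) and *Dtx1* (0.31) beside the same 4 rising genes (*Dtx1* in control cells was at 0.21, limma adjusted p = 0.0548), where 45.7% of 15253 genes passed (21.7% higher and 24% lower). *Cd1d1* lost this call without B-CKO replicate 1 at 24 h (0.0513). *Dtx1* lost it without B-CKO replicate 1 or 2 at 24 h or 3 at 48 h (0.0538 to 0.0724). In control cells *Dtx1* passed with a pseudocount of 0.1 (0.0469), the minimum mean of 1 FPKM (0.0178, and 0.00474 with the block), median ratio scaling (0.0371) and without control replicate 3 at 24 h (0.023). It did not pass with TPM (0.12) or in the single fit (0.163). Without control replicate 2 at 24 h the change of *Dtx1* was 0.13. *Hes1* passed with the minimum mean of 1 FPKM in control and B-CKO cells (0.24 and 0.31, limma adjusted p = 0.0435 and 0.0382, and 0.0352 and 0.0271 with the block). In control cells it also passed without replicate 1 at 48 h (0.0454). It did not pass with TPM (0.143 and 0.141) or in the single fit (0.491 and 0.333). In B-CKO cells the change of *Hes1* was 0.17 without replicate 3 at 24 h. The control count was the least stable: a single fit of all 18 libraries called 1 gene, and it fell to 3 without control replicate 2 at 24 h or replicate 3 at 48 h. Over all genes 4743, 5739 and 5967 passed in these fits, against 6820 in the reported one. Over the whole course from 0 h to 48 h, 7 genes passed in each genotype, 6 lower and *Cd24a* higher, where 56.8% of 15584 genes passed in control (26.5% higher and 30.3% lower) and 57.6% of 15695 in B-CKO cells (27% higher and 30.7% lower). *Cd9* and *Cd93* were those that did not. In B-CKO cells *Cd9* passed with TPM (-0.52, limma adjusted p = 0.0294) and without B-CKO replicate 1 at 0 h (-0.46, 0.00659), and *Cd93* without B-CKO replicate 3 at 0 h (0.67, 0.0251).

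The second question was whether loss of *Zbtb24* shifts these markers. At 0 h no shift was called: 0 of the 9 genes passed limma's test, 0 had an unadjusted p under 0.05, and none had B-CKO libraries clear of all control libraries. *Zbtb24* itself passed at no time, although every B-CKO library lay below every control library. A gene that did not pass between genotypes may therefore still have changed. Over all genes 0% of 15641 passed, 2% had an unadjusted p under 0.05 and 3.87% did not overlap. The log2 fold changes were between -0.25 for *Cd9* (95% interval -0.76 to 0.26) and 0.13 for *Cd55* (-0.38 to 0.64), with a median of -0.11 beside -0.00 over all genes. Values for *Fcer2a* were -0.10 (-0.62 to 0.41), for *Cd1d1* -0.23 (-0.72 to 0.27), for *Notch2* 0.01 (-0.41 to 0.43), for *Cd93* -0.11 (-0.80 to 0.59) and for *Cd24a* -0.23 (-0.56 to 0.11). *Dtx1* was at -0.21 (-0.53 to 0.10) and *Hes1* at 0.04 (-0.71 to 0.78). Leaving out 1 library moved *Cd9* to between -0.38 and -0.08, *Cd1d1* to between -0.37 and -0.03 and *Dtx1* to between -0.33 and -0.14. Each of these intervals, from the fit without pairs, held the estimate found for the same gene at 24 h. At 0 h the libraries of the same number deviated together, and *Cd1d1*, *Cd9*, *Dtx1*, *Cd93* and *Cd24a*, 5 of the 9, were lower in B-CKO in 3 of 3 pairs, as were 11.4% of all genes. With the pairs as a block limma called 0 of the 9, with adjusted p between 0.8435 and 1. With the library numbered 1 left out of both genotypes, a choice made after seeing the data, 0 genes passed as well.

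At 24 h all 9 estimates were below 0, with a median of -0.21 beside -0.00 over all genes, and again 0 of the 9 passed limma's test, where 15 of 15104 genes (0.0993%) did. Before adjustment 5 of the 9 had p under 0.05, where 16.3% of all genes did: *Fcer2a*, *Cd1d1*, *Dtx1*, *Hes1* and *Cd55*. In 4 of them (*Cd1d1*, *Dtx1*, *Hes1* and *Cd55*) every B-CKO library lay below every control library, as for 11.7% of all genes. *Fcer2a* overlapped by 1 library, B-CKO replicate 1 at 89.81 FPKM against 89.71 FPKM in control replicate 3. The values with their 95% intervals were -0.26 (-0.44 to -0.07) for *Fcer2a*, -0.21 (-0.37 to -0.04) for *Cd1d1*, -0.28 (-0.60 to 0.05) for *Cd9* and -0.16 (-0.31 to -0.01) for *Cd55*, with limma adjusted p of 0.182, 0.209, 0.374 and 0.291. *Fcer2a* passed with the replicate block and a minimum mean of 1 FPKM together, an alternative chosen after seeing the data (limma adjusted p = 0.0127). *Cd9* was at -0.13 without B-CKO replicate 1. Leaving out 1 library moved *Cd55* to between -0.20 and -0.096. *Cd93* was at -0.17 (-0.35 to 0.01). *Notch2* (-0.05, -0.13 to 0.02) and *Cd24a* (-0.02, -0.15 to 0.12) were the nearest to 0. Some sums of other markers did not overlap between genotypes at this time, although limma called 0 genes of these lists. The summed 5 B cell genes were between 1883 and 1943 FPKM in B-CKO and between 2016 and 2174 FPKM in control libraries. The 8 T cell genes, most of whose sum was *Lck*, were between 10.2 and 11.1 against 12.4 and 15.3 FPKM. The 4 endothelial genes, led by *Pecam1*, were between 32.0 and 33.0 against 35.6 and 36.7 FPKM. The 4 dendritic cell genes, led by *Flt3*, were between 9.19 and 9.89 against 6.77 and 7.2 FPKM. In these lists 3, 1, 1 and 1 genes had an unadjusted p under 0.05, beside 16.3% of all genes. *Lck* alone was at 9.15, 8.24 and 9.31 FPKM in B-CKO and 13.33, 11.5 and 11.22 FPKM in control libraries, whereas the median log2 fold change of the 8 T cell genes was 0.04, with 75% of them above 0. No gene of the B cell, T cell and dendritic cell lists was at 0 throughout a group at 24 h. The part of these genes in the results above was not tested.

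On the scale of FPKM + 1 *Dtx1* had the largest estimate at 24 h and at 48 h. With a pseudocount of 0.1 *Hes1* was at -0.4901 and *Dtx1* at -0.4865 at 24 h. At 24 h *Dtx1* was at 40.04, 34.56 and 42.86 FPKM in control and 26.41, 26.14 and 31.14 FPKM in B-CKO libraries. At 48 h it was at 45.27, 44.77 and 45.99 FPKM and at 32.45, 34.57 and 37.61 FPKM. No B-CKO library reached a control library at either time, whereas at 0 h B-CKO replicate 3 lay within the control range. The mean in B-CKO cells was 71.2% of control at 24 h and 76.9% at 48 h, a log2 fold change of -0.47 (-0.70 to -0.25) and -0.37 (-0.51 to -0.24). Limma's adjusted p was 0.0991 and 0.163 over all genes tested, with raw p of 0.00176 and 0.000322. With testing limited to genes whose mean reached 1 FPKM it was 0.018 and 0.0411, and *Dtx1* was the single gene of the 9 that passed, where 4% of 9711 genes passed at 24 h and 0.294% of 9857 at 48 h. Over all alternatives the adjusted p lay between 0.00394 and 0.285 at the earlier time and between 0.00885 and 0.47 at the later one, and the direction was the same in each.

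After LPS the *Hes1* estimates were below 0, as were those of *Dtx1*, but its level lay near the lower end of the scale. At 0 h the signs differed (0.04 for *Hes1* and -0.21 for *Dtx1*). At 48 h *Hes1* was at 2.66, 3.09 and 3.49 FPKM in control and 2.26, 2.27 and 2.64 FPKM in B-CKO libraries, which did not overlap. The log2 fold change was -0.34 (-0.65 to -0.02) at 24 h and -0.26 (-0.50 to -0.02) at 48 h, with limma adjusted p of 0.277 and 0.599. Without B-CKO replicate 3 the value at 24 h was -0.19, and with the replicate block and a minimum mean of 1 FPKM together *Hes1* passed at 24 h (limma adjusted p = 0.0481). At 48 h *Dtx1* and *Hes1* were the 2 genes with unadjusted p under 0.05 and the 2 whose groups did not overlap, where 7.71% of all genes had such a p and 6.24% had every B-CKO library below every control library. Limma called 0 of the 9 at 48 h and 7 of 15210 genes (0.046%). The other 7 estimates at 48 h were between -0.26 for *Cd9* (-0.55 to 0.02) and 0.18 for *Cd55* (-0.07 to 0.43), with the median of all 9 at 0.03. Without control replicate 3 the value of *Cd9* was -0.13. Leaving out 1 library moved *Cd55* to between 0.078 and 0.26. The receptor *Notch2* was at -0.04 (-0.29 to 0.20) at that time. The summed T cell genes, again led by *Lck*, were between 9.24 and 10.99 FPKM in B-CKO and between 12.56 and 13.9 FPKM in control libraries at 48 h. The median log2 fold change of the T cell genes was -0.01, with 50% of them above 0. The dendritic cell genes, led by *Flt3*, were between 31.7 and 32.4 against 23.5 and 28.9 FPKM, and the endothelial genes, led by *Pecam1*, between 33.3 and 34.5 against 34.8 and 35.05 FPKM. The 8 myeloid genes, led by *Cd68* and *Itgam*, summed to between 8.24 and 9.92 FPKM in B-CKO and 10.46 and 13.5 FPKM in control libraries, with *S100a8* and *S100a9* at 0, and the 7 erythroid genes, nearly all *Hbb-bt*, to between 11.62 and 16.55 against 9.74 and 10.27 FPKM. The median log2 fold change of the erythroid genes tested was -0.04, with 20% of them above 0. Limma called 0 genes of these marker lists at 48 h. The part of these markers in the results was not tested.

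**Figure D4:**
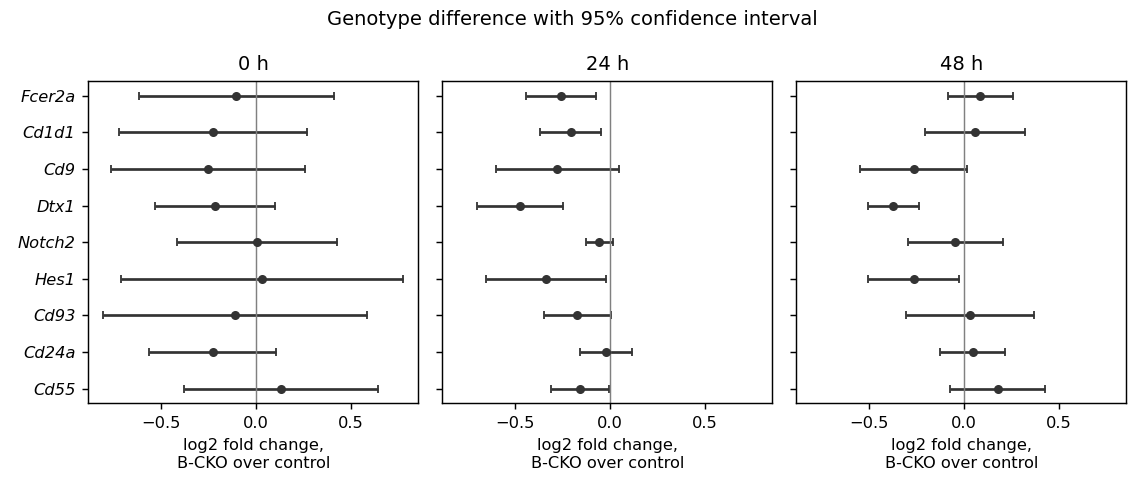
Log2 fold change of FPKM + 1, B-CKO over control (x axes), for the 9 genes (rows) before and after 24 h or 48 h of LPS, with points for the limma estimate and bars for its 95% confidence interval over 3 libraries a group. At 24 h all points are below 0, and *Dtx1* is lowest at 24 h (-0.47) and 48 h (-0.37); none passed after adjustment over all genes.

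Whether the LPS response itself differed between genotypes was tested as an interaction. For the change from 0 h to 24 h, 0 of the 9 genes passed limma's test and 0 had an unadjusted p under 0.05, where 0% of 16182 genes passed and 2.89% had such a p. *Hes1* was at -0.37 (-1.20 to 0.45), from -0.69 to -0.20 as 1 replicate of a genotype was left out at both times, and *Dtx1* was at -0.26 (-0.65 to 0.13). For the change from 24 h to 48 h, 0 passed and 2 had an unadjusted p under 0.05, where 0% of 15844 genes passed and 7.31% had such a p. These were *Fcer2a*, which gained 0.34 (0.09 to 0.60) more in B-CKO than in control cells, and *Cd55*, which gained 0.34 (0.04 to 0.63) more, with limma adjusted p of 0.61 and 0.649. The mean of *Fcer2a* in B-CKO cells was 83.4 FPKM at 24 h and 138 FPKM at 48 h, against 99.9 and 130 FPKM in control cells.

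Other genes of the Notch pathway, 47 in the table, were examined beside *Notch2*, *Dtx1* and *Hes1*. From 0 h to 24 h, 27 passed in control (5 higher, 22 lower) and 29 in B-CKO cells (5 higher, 24 lower), with a median of -0.25 and -0.26, where 57.4% and 59.8% of all genes passed. By direction, 30.7% of all genes passed lower and 26.7% higher in control, and 32.3% and 27.5% in B-CKO cells. In control cells the smallest adjusted p (limma) belonged to *Maml2*, a coactivator of the Notch complex, at -1.22 (8.59e-05), *Dtx4*, a relative of *Dtx1*, at 1.15 (0.000119), the acetyltransferase *Kat2b* at -1.17 (0.000148) and the ubiquitin ligase *Itch* at -0.90 (0.000149). In B-CKO cells they were *Maml1* (-1.44), the presenilin *Psen2* (-0.75), *Kat2b* (-1.23) and *Maml2* (-1.10). From 24 h to 48 h, 19 passed in control (10 higher) and 21 in B-CKO cells (13 higher), where 44.9% and 45.7% of all genes did, led by *Hes6* at 0.57 and 0.67. Between genotypes 0 passed at any time, with 0, 11 and 4 at an unadjusted p under 0.05 at 0 h, 24 h and 48 h, where 2%, 16.3% and 7.71% of all genes had such a p, and medians of -0.01, -0.02 and -0.00. Of the 11 at 24 h the smallest p belonged to *Aph1b*, a subunit of the gamma-secretase that cuts Notch (0.22, adjusted p = 0.0586 from limma), and *Hes6* (-0.21, 0.0688), named here after their values were seen.

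Of 3 other follicular genes, 2 fell by 24 h in both genotypes, the quiescence factor *Klf2* (log2 fold change -3.51 in control and -4.08 in B-CKO cells) and the chemokine receptor *Ccr7* (-2.99 and -2.98). *Klf2* rose again from 24 h to 48 h (0.54 and 0.85). All 9 other marginal zone genes passed by 24 h in both genotypes, 6 lower and 3 higher, beside 57.4% and 59.8% of all genes. Lower ones included *Tm6sf1* (-2.98 and -3.10), *Myof* (-2.65 and -2.53) and the complement receptor *Cr2* (-2.01 in each), while the scavenger receptor *Cd36* rose by 2.45 and 2.46. From 24 h to 48 h, 3 of them passed in control and 6 in B-CKO cells, beside 44.9% and 45.7% of all genes. Between genotypes 0 of these 9 passed, but 0, 3 and 6 had an unadjusted p under 0.05 at 0 h, 24 h and 48 h, in both directions, beside 2%, 16.3% and 7.71% of all genes. Among them *S1pr3*, the lipid receptor that holds marginal zone B cells in place, named here after its values were seen, was lower in every B-CKO library than in any control library at 48 h, at 1.73, 2.28 and 1.88 FPKM against 3.06, 2.96 and 3.06 FPKM (log2 fold change -0.45, limma adjusted p = 0.243). *Cr2* was at 0.20 (0.06 to 0.34) in that comparison, with an adjusted p of 0.448 from limma. From 0 h to 24 h the medians of these lists were -2.99 for the follicular and -1.21 for the marginal zone genes in control cells, beside -0.02 over all genes.

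Of 7 other immature and transitional genes, 3 fell by 24 h in both genotypes: the surrogate light chain relative *Vpreb3* (-3.49 and -3.51), the transcription factor *Sox4* (-1.80 and -1.85) and the recombinase *Rag1* (-0.25 and -0.24). *Vpreb3* rose again by 2.00 and 2.17 by 48 h, and 2 of the 7 passed in each genotype over that interval. Of 5 other complement regulators, 3 fell by 24 h in each genotype, *Cd55b* (-1.68 and -1.86) and *Cd46* (-0.80 and -0.64) in both, with *Cd59a* in control and *Cr1l* in B-CKO cells, and 1 passed from 24 h to 48 h in each, *Cd55b* in B-CKO cells (0.23) and *Cd59b* in control cells, which was listed at 0 in all 3 libraries at 24 h and at 0.16, 0.09 and 0.08 FPKM at 48 h. Of 6 other tetraspanins, 4 fell by 24 h in control and 6 in B-CKO cells, led by *Cd37* at -1.32 and -1.50, and *Cd81* rose by 0.40 and 0.48 from 24 h to 48 h. The shares of all genes that passed were 57.4% in control and 59.8% in B-CKO cells by 24 h, and 44.9% and 45.7% from 24 h to 48 h. Between genotypes 0 genes of these 4 lists, the follicular one included, passed at any time. At an unadjusted p under 0.05 there were 0, 1 and 1 follicular genes at 0 h, 24 h and 48 h, *Klf2* (-0.42) at 24 h and the chemokine receptor *Cxcr5* (0.12) at 48 h, 0, 0 and 2 transitional genes, and 0, 0 and 1 complement regulators. The tetraspanins had 0, 4 and 0, and the 4 at 24 h, *Cd37*, *Cd53*, *Cd151* and *Cd81*, were between -0.20 and -0.11, where 2%, 16.3% and 7.71% of all genes had such a p at 0 h, 24 h and 48 h.

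Over the 18 libraries the profiles of *Fcer2a*, *Cd1d1*, *Dtx1*, *Notch2*, *Hes1* and *Cd55* were alike, with Pearson correlations of log2(FPKM + 1) between 0.86 and 0.99, and *Cd24a* ran opposite to each of them, between -0.98 and -0.91. All 18 points share the step from 0 h to 24 h, so these values describe the time course and not a relation within a group. *Cd9* was at 0.61 to 0.78 with those 6, and *Cd93* at 0.03 to 0.23. Among 9997 genes whose mean reached 1 FPKM, the pair closest to each gene was *H2-Eb2* (r = 0.992) and *Smpdl3a* (0.991) for *Fcer2a*, *Ralgps2* (0.9955) and *Nod1* (0.9953) for *Cd1d1*, and *Rap1gap2* (0.911) and *Bcl2l11* (0.903) for *Cd9*. For *Dtx1* they were *Ndst1* (0.9901) and *Wdr81* (0.9893), for *Notch2* *Pcf11* (0.9975) and *Rictor* (0.9956), and for *Hes1* *Tspan32* (0.9945) and *Ttc17* (0.9941). For *Cd93* they were *Slc2a1*, the glucose transporter GLUT1 (0.954), and *Vegfa* (0.943), for *Cd24a* *Rtn4ip1* (0.9905) and *Ndufb9* (0.9902), and for *Cd55* *Zfp36* (0.9974) and *Scn4a* (0.9969).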

How the data were processed

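Total splenic B cells of control and B-CKO mice were profiled by RNA-seq, with 3 libraries in each of 6 groups. Per the study's methods, reads were mapped to mm10 with bowtie2 and quantified with Cufflinks and RSEM; the submitters' processing notes name BWA and DESeq2 too, without versions. Sequencing was paired-end, on an MGI2000 per the labels and a HiSeq or Novaseq per the methods. The authors deposited FPKM with 2 decimals by NCBI gene ID, which are not counts, so the depth is unknown. Of 16545 IDs, 16512 were matched to RefSeq symbols. From these values log2(FPKM + 1) was tested with limma 3.58.1 in R 4.3.3 (lmFit, eBayes with a trend, two-sided) on genes above 0 FPKM in any compared library, with Benjamini-Hochberg adjustment over all of them and a threshold of 0.05. An exact permutation test of 3 against 3 cannot go below 0.1. Tests were checked on simulated data. Transcripts of GENCODE M21 were compared in windows of 75 bases.

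The genes, the 6 gene lists and the cell type markers were chosen with earlier results of these data known. Some genes of these lists are not reported here and were left out of their counts and sums. All 9 genes are named; of a list, at most 4 called genes with the smallest adjusted p. Likeness is Pearson's r over 18 libraries. At 0 h same-numbered libraries of the genotypes deviated together (r = 0.854, 0.468 and 0.789 over 9997 genes, other numbers -0.342 on average), so these numbers pair the 0 h samples, by the data and not by the labels. Weaker values were found between B-CKO cells at 24 h and 48 h (0.126, 0.183 and 0.117) and between the genotypes at 24 h (0.103, 0.2 and 0.091). Alternatives were a pseudocount of 0.1, a minimum mean of 1 FPKM, TPM, median ratio scaling, the replicate block, a single fit and leaving out each library. Python 3.11.15, numpy 2.4.6, pandas 2.3.3 and matplotlib 3.10.9 were used.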

Additional observations from a re-analysis of the deposited data

Results flagged for a closer look

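*Cd24a* was marked because its change from 24 h to 48 h had opposite signs in the genotypes when same-numbered libraries were set against each other: it was below 0 in 3 of 3 control numbers (-0.01, -0.03 and -0.01 on the log2 scale) and above 0 in 3 of 3 B-CKO numbers (0.02, 0.09 and 0.03), a difference of 0.066. The signs depend on the scaling: the control change was 0.00649 with median ratio scaling and the B-CKO change -0.00523 with TPM. The labels do not tie a number to the same mouse at both times. As an interaction over libraries the difference was 0.07 (95% interval -0.14 to 0.27), with a limma adjusted p of 0.897, and between 0.835 and 1 over the alternatives, the replicate block among them.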

How the results depend on the processing

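Of the refits of single genes, 1206 kept the direction and the side of the threshold, 29 passed where the reported fit did not, 21 lost the call and 49 reversed; all that reversed had no call. With only genes of a mean of at least 1 FPKM, the genotype comparison called 1 of the 9 genes at 24 h and 1 at 48 h. Over all genes 388 and 29 passed there. With the replicate block added, chosen after seeing the data, the comparison called 3 and 1 of the 9, and 704 and 116 of all genes. Fewer genes are tested there. With the replicate block alone it called 0 at each time; the counts over time were as reported but for 4 in control cells from 24 h to 48 h. From 24 h to 48 h in control cells a single fit called 1, where 4743 of all genes passed against 6820 in the reported fit. Leaving out a library gave 3 to 5, and where it gave 3, 5739 or 5967 of all genes passed. The cause was not tested. Rescaling to TPM moved the median change of expressed genes from 0 h to 48 h from 0.00 to -0.19 in control and -0.21 in B-CKO cells; relative to it, all called genes kept their sign. The estimates that reversed were all uncalled. Without any single library, the B-CKO over control value at 0 h ranged from -0.29 to 0.11 for *Fcer2a*, -0.11 to 0.16 for *Notch2*, -0.16 to 0.35 for *Hes1*, -0.33 to 0.0914 for *Cd93* and -0.0042 to 0.34 for *Cd55*, at 24 h from -0.0713 to 0.0186 for *Cd24a*, and at 48 h from -0.029 to 0.12 for *Cd1d1*, -0.16 to 0.0339 for *Notch2*, -0.0601 to 0.16 for *Cd93* and -0.0136 to 0.08905 for *Cd24a*. That of *Cd24a* in control cells from 24 h to 48 h ranged from -0.0693 to 0.0439. Without any replicate of 1 genotype at both times, the interaction from 0 h to 24 h ranged from -0.20 to 0.14 for *Cd1d1*, -0.19 to 0.14 for *Cd9*, -0.21 to 0.07 for *Notch2* and -0.30 to 0.19 for *Cd93*, and that from 24 h to 48 h from -0.12 to 0.13 for *Cd9*, -0.10 to 0.0856 for *Notch2* and -0.12 to 0.20 for *Hes1*. With TPM *Notch2* was at -0.00691 at 0 h, *Cd24a* in B-CKO cells from 24 h to 48 h at -0.00523, the interaction of *Cd1d1* from 0 h to 24 h at -0.005065 and that of *Notch2* from 24 h to 48 h at -0.001635. With median ratio scaling *Cd24a* was at 0.00265 between genotypes at 24 h and at 0.00649 in control cells from 24 h to 48 h, and the interaction of *Notch2* at -0.00254. The interaction of *Cd1d1* from 0 h to 24 h was -0.0423 with a pseudocount of 0.1 and -0.00682 without the libraries numbered 1 at 0 h. The cause was not tested.

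In B-CKO cells from 24 h to 48 h, *Cd1d1* lost its call without B-CKO replicate 1 at 24 h (limma adjusted p = 0.0513), *Dtx1* without B-CKO replicate 1 or 2 at 24 h or replicate 3 at 48 h (0.0699, 0.0724 and 0.0538), and *Cd9* without B-CKO replicate 1 or 3 at 48 h (0.058 and 0.0653). *Cd9* from 0 h to 24 h lost it without B-CKO replicate 2 at 0 h (0.051). In control cells from 24 h to 48 h, *Fcer2a* lost it in the single fit (0.0765), and *Cd9* without replicate 2 or 3 at 24 h or 1 or 3 at 48 h (0.0558 to 0.0949). Depth in fragments is unknown, so genes near the lower end, such as *Hes1* after LPS, cannot be given a counting error.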
